A study of Mus musculus with 7 samples.

Results

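Carbonic anhydrases are the enzymes that convert carbon dioxide and water to bicarbonate and a proton, and back. Here 10 carbonic anhydrase genes were listed by name (Car1, Car2, Car3, Car4, Car5a, Car5b, Car8, Car11, Car12 and Car14) and looked up in the gene-level expression table of 7 mouse tissues. The rule lists names and no measured value, but the list was made with earlier results of these data known. Where a name had several loci, the one with the highest maximum FPKM was taken. Of the 10 names, 9 had a locus among the 94339 loci held, and Car5a was not analysed here. The tissues were cortex, kidney, liver, skeletal muscle and 3 fat depots, namely interscapular brown (BAT), subcutaneous (SCAT) and visceral (VAT) adipose tissue. All came from C57BL/6 mice (C57BL/6N in the study's text) of genotype wt on the diet labelled NCD at 36 weeks of age, so every library shares strain, genotype, diet and age. Total RNA was depleted of ribosomal RNA, made into strand-specific libraries with a directional kit and sequenced from both fragment ends, and each tissue has 1 library. The study used these libraries to find transcripts that one tissue expresses above the others. No spread between animals can be had from 1 library, so no test was made, and 2 neighbouring tissues in an order of levels cannot be told apart beyond the values given.

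The mammalian carbonic anhydrases differ in where they work. Some are free in the cytosol (Car1, Car2, Car3), some face the outside of the plasma membrane (Car4, Car12, Car14) and some sit in mitochondria (Car5a, Car5b). Car8 and Car11 belong to the carbonic anhydrase-related proteins, which keep the fold of the enzyme but lack residues that hold its zinc and are not known to hydrate carbon dioxide. In kidney the cytosolic and membrane enzymes serve bicarbonate recovery and acid secretion, in red blood cells they serve gas transport, and the mitochondrial form supplies bicarbonate to carboxylases.

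Values are FPKM, fragment counts divided by transcript length and library size, so that levels can be set side by side between genes as well as tissues. The table holds no fragment counts, and the depth behind each value is unknown. The tissue labels were checked against marker genes: Apoa1 was at 2521 FPKM in liver, Kap at 23760.3 in kidney, Snap25 at 215 in cortex, Ucp1 at 6552 in BAT and Ckm at 8592 in muscle, and Adipoq at 330 in VAT and 109.6 in SCAT. The fat libraries also held RNA of other tissues. VAT had 3 of 6 epididymis markers enriched (at least 4-fold above every other tissue), among them Crisp1 at 1386 FPKM, and SCAT had 6 of 6 pancreatic acinar and 4 of 4 lymphocyte markers enriched. BAT held muscle transcripts, with Tnnt3 at 307 FPKM, Ckm at 166 and Myh4 at 87.5. Of the muscle level, 3 fast or general fibre markers (Myh1, Ckm, Tnnt3) stood in BAT at 1.02% to 3.13%, and 4 slow-fibre markers (Myl3, Myh7, Tnnc1, Tnni1) at 15.3% to 23.6%. In tissue RNA, fewer cells of a type and less RNA per cell cannot be told apart.

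Among the cytosolic enzymes, Car3 was the most abundant carbonic anhydrase mRNA in 5 of the 7 tissues. Car3, a cytosolic form of low catalytic activity that is abundant in muscle and fat, was at 1509 FPKM in VAT and 1242 in muscle. It was at 609 in liver, 499.9 in SCAT and 315 in BAT, but only at 5.53 in kidney and 1.37 in cortex. The 5 high tissues were all far above the other two, and VAT was 1103-fold above cortex. In VAT, Car3 ranked 3 among the 14898 protein-coding genes kept, in SCAT 19, in muscle 25, in liver 76 and in BAT 192. Genes without a value in all 7 tissues are left out of these ranks. Among them is Ckm, which at 8592 FPKM stood above Car3 in muscle. VAT exceeded muscle by a log2 ratio of 0.28, computed as all log2 ratios here from FPKM + 0.1. Its margin over the next tissue was 1.09 under median-ratio and 1.12 under upper-quartile scaling of the libraries, and 1.30, over SCAT, under equal-sum scaling. Adipoq, the adipocyte hormone, stood in muscle at 4.28% and in liver at 0.0461% of its VAT level, whereas Car3 stood at 82.3% and 40.4%. In VAT, Ckm, the creatine kinase of muscle fibres, stood at 0.115% of its muscle level and Car3 at 121%. In BAT, Car3 stood at 25.3% of its muscle level, beside 1.93% for Ckm but 23.6% for Tnni1 and 23.5% for Tnnc1, both troponins of slow fibres. The part of muscle RNA in the BAT value of Car3 was not tested.

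**Figure D1:**
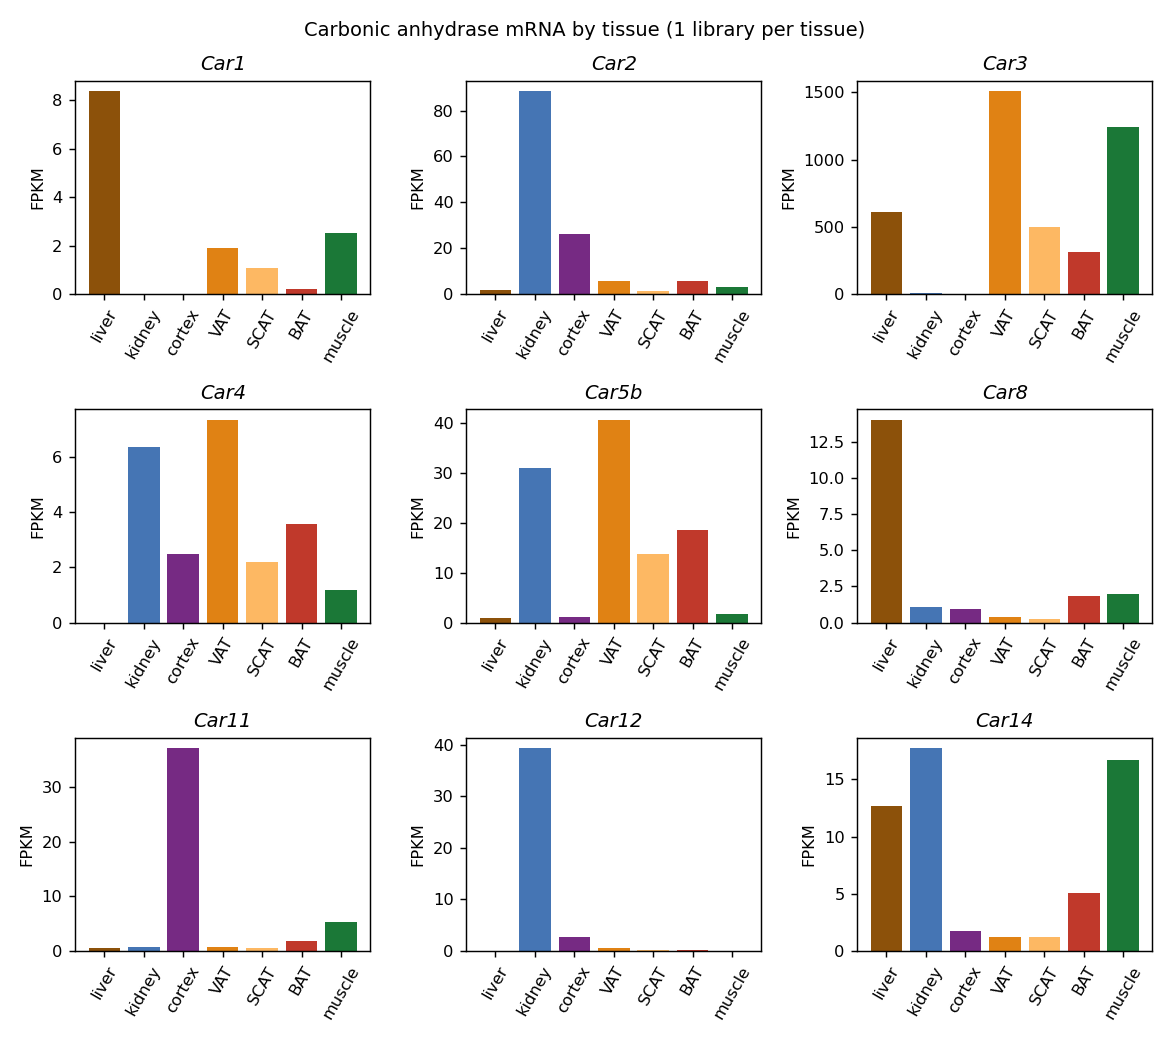
FPKM of each of the 9 carbonic anhydrase genes (vertical axis, linear, with its own range per panel) in the 7 tissues, with 1 bar for each library. Car3 reached 1509 FPKM in VAT, and the highest bar of any other gene was 88.4, of Car2 in kidney.

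Car2, the fast cytosolic enzyme of red cells, kidney tubules and oligodendrocytes, was at 88.4 FPKM in kidney and 26.1 in cortex. It was at 5.90 in VAT, 5.85 in BAT, 2.95 in muscle, 1.67 in liver and 1.34 in SCAT. Kidney was above cortex by a log2 ratio of 1.76, short of the 4-fold used below, and of 0.99 under equal-sum scaling. In cortex, 5 of 6 oligodendrocyte markers were enriched, with Mobp at 135 FPKM. Of 4 collecting duct markers only Aqp2 (44.1 FPKM) was enriched in kidney, and Calb1 and Hsd11b2 were higher in cortex (27.1 and 6.51) than in kidney (18.4 and 4.49). Their part in the Car2 values was not tested.

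Car1, the cytosolic form best known from red cells and gut epithelium, was highest in liver. It was at 8.38 FPKM in liver, 2.53 in muscle, 1.90 in VAT, 1.07 in SCAT and 0.201 in BAT, and was listed at 0 in kidney and cortex. Liver was above muscle by a log2 ratio of 1.69. Under each of the 3 scalings the next tissue was VAT, and the margin of liver was between 0.85 and 1.59. The summed FPKM of 6 erythroid markers was 2411 in VAT, 2182 in BAT, 1309.9 in kidney, 1075 in liver, 939 in SCAT, 840 in muscle and 161 in cortex. Of the 6, Alas2 was highest in liver, at 28.6 FPKM, and the part of red cells in the Car1 values was not tested.

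The genes Car1, Car2 and Car3 are neighbours on chromosome 3. In GRCm38, Car13 lies at chr3:14641727-14663002, Car1 at chr3:14766216-14808368, Car3 at chr3:14863512-14872523 and Car2 at chr3:14886273-14900770, a span of 259 kb in which Car1 alone is on the minus strand. The gap between Car3 and Car2 is 13.7 kb. These neighbours peaked in different tissues: Car13 in BAT, Car1 in liver, Car3 in VAT and Car2 in kidney.

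The membrane enzymes were led by kidney or VAT. Car12, a transmembrane form with its active site outside the cell, was at 39.4 FPKM in kidney and 2.65 in cortex. It was at 0.536 in VAT, 0.106 in SCAT, 0.106 in BAT, 0.0746 in liver and 0.0163 in muscle. Kidney was above cortex by a log2 ratio of 3.84. This was the widest margin among the 9 genes as deposited, but under equal-sum scaling it was 3.10 and that of Car11 4.15. Car14, a second transmembrane form, was at 17.7 FPKM in kidney, 16.7 in muscle, 12.7 in liver and 5.03 in BAT, and at 1.76 in cortex, 1.26 in VAT and 1.19 in SCAT. Kidney, muscle and liver lay close together, with a log2 ratio of 0.09 between the first pair. Car14 in BAT was at 30.2% of its muscle level, beside 1.93% for Ckm and 15.3% to 23.6% for the slow-fibre markers, whose part in this value was not tested. The gene overlaps Aph1a, on the opposite strand, by 521 bases.

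Car4, which is tethered to the outer membrane face by a lipid anchor and is found on capillary endothelium and kidney tubules, did not exceed 10 FPKM. It was at 7.37 FPKM in VAT, 6.37 in kidney, 3.58 in BAT, 2.49 in cortex, 2.21 in SCAT and 1.16 in muscle, and was listed at 0 in liver. VAT and kidney differed by a log2 ratio of 0.21. The endothelial markers Pecam1, Cdh5, Kdr and Gpihbp1 were above 1 FPKM in liver. Their sum was 113 in BAT, 99.2 in VAT, 76.2 in SCAT, 53.1 in muscle, 38.5 in liver, 25.4 in kidney and 2.40 in cortex, and the part of endothelium in the Car4 values was not tested.

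Car5b, the mitochondrial form, followed the fat depots and kidney. It was at 40.6 FPKM in VAT, 31.0 in kidney, 18.6 in BAT and 13.6 in SCAT. It was at 1.73 in muscle, 1.17 in cortex and 0.997 in liver. Kidney reached 76.3% of the VAT level of Car5b, while Adipoq in kidney was at 0.405% of its VAT level.

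The related proteins each had a single high tissue. Car8, known for binding an inositol trisphosphate receptor in Purkinje cells, was at 14.1 FPKM in liver. It was at 1.95 in muscle, 1.83 in BAT, 1.05 in kidney, 0.967 in cortex, 0.412 in VAT and 0.250 in SCAT, and the log2 ratio of liver over muscle was 2.79. Of 3 cerebellar markers in cortex, Calb1 was at 27.1 FPKM, Pcp2 at 2.05 and Gabra6 at 0.00851. Car11, a secreted brain protein, was at 37.1 FPKM in cortex and 5.34 in muscle. It was at 1.75 in BAT, 0.710 in VAT, 0.646 in kidney, 0.561 in SCAT and 0.488 in liver, and the log2 ratio of cortex over muscle was 2.77. The gene Dbp, which lies 405 bases away from Car11 on the same strand, was at 15.4 FPKM in liver, 8.55 in muscle, 5.12 in kidney, 3.77 in BAT, 3.51 in cortex, 1.43 in VAT and 1.28 in SCAT. The table lists both genes with the bounds of the same bundle of 6 loci.

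A gene was counted as enriched when its FPKM reached 1 in a tissue and its log2 value stood at least 2 (4-fold) above every other tissue. By this rule 3 of the 9 genes were enriched: Car8 in liver, Car12 in kidney and Car11 in cortex. Among the 14898 protein-coding genes with a value in all 7 tissues that reached 1 FPKM, 21.3% were enriched in some tissue. The shares were 3.38% in liver, 2.48% in kidney and 8.22% in cortex. No test sets 3 of 9 genes apart from that background. Liver had 5 of the genes at 1 FPKM or more, VAT and SCAT 6 each, kidney, cortex and BAT 7 each, and muscle 8. With a minimum of 5 FPKM the order changed, with 6 in kidney, 4 each in liver, VAT and BAT, 3 in muscle and 2 each in cortex and SCAT. The share of all protein-coding genes at these minimums is not given here.

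Summed over the 9 genes, carbonic anhydrase mRNA was highest in VAT, at 1567 FPKM, and in muscle, at 1274. Liver held 648, SCAT 520.3, BAT 352, kidney 190.1 and cortex 73.6. Car3 made up 97.5% of the sum in muscle, 96.3% in VAT, 96.1% in SCAT, 94.1% in liver and 89.5% in BAT, but 2.91% in kidney and 1.86% in cortex. Kidney was instead led by Car2 (46.5%), Car12 (20.7%) and Car5b (16.3%), and cortex by Car11 (50.4%) and Car2 (35.5%). The membrane enzymes Car4, Car12 and Car14 held 33.4% of the sum in kidney and at most 9.37% in any other tissue. These shares depend on Car3 being in the sum. Without Car3, Car14 alone held 51.5% in muscle and 33.0% in liver, while Car12 held 21.3% and Car14 9.61% in kidney. Car9, a further transmembrane form, is not among the 9. Without Car3, Car5b led the rest of the 9 in all 3 fat depots, with 69.2% in VAT, 67.0% in SCAT and 50.3% in BAT. Muscle was then led by Car14 (51.5%) and liver by Car8 (36.7%). Car5a, which was not analysed here, is in none of these sums. Over all 15 family genes with a locus, described further on, BAT was instead led after Car3 by Car13 (39.6 FPKM, against 18.6 for Car5b) and muscle by the locus named Car9 (240.5, against 16.7 for Car14), which shares its listed bounds with Tpm2. The Car3 share was then 76.7% in BAT and 81.4% in muscle.

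**Figure D2:**
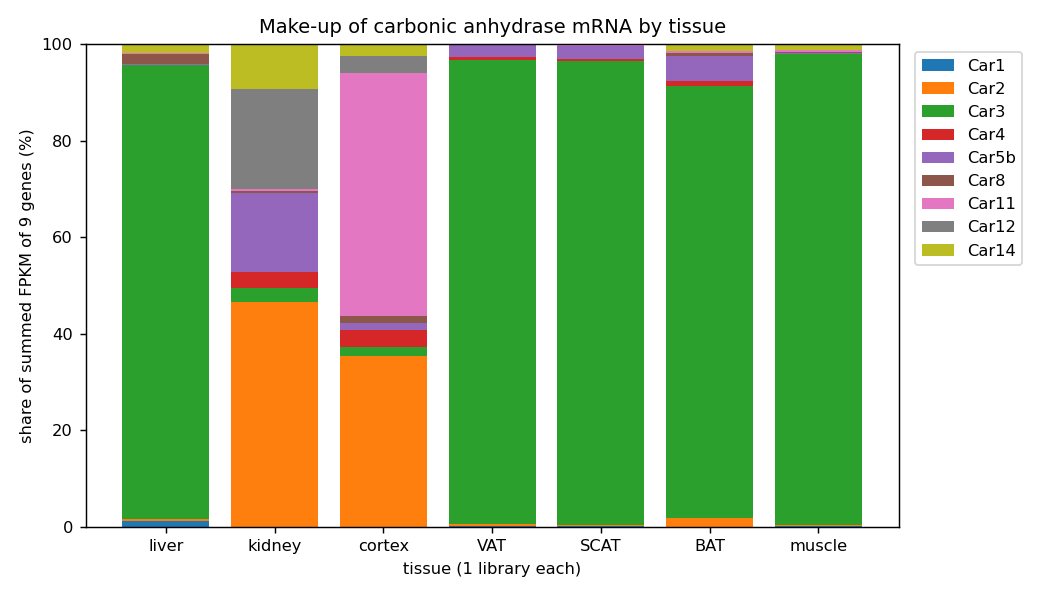
Share of each of the 9 genes in their summed FPKM (vertical axis, percent) for the 7 tissues, 1 library each. Car3 fills 89.5% or more of the bar in liver, muscle and the 3 fat depots, whereas kidney and cortex are shared mainly among Car2, Car12, Car5b and Car11.

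The fat depots were then set against each other for the genes with 1 FPKM or more in either depot of a pair, and these 3 comparisons share libraries. In VAT against SCAT, all 6 such genes were higher in VAT, except that Car14, at a log2 ratio of 0.08, fell to between -0.19 and -0.01 under the 3 scalings of the libraries tried. Their median log2 ratio was 1.58, beside 0.16 for 11938 protein-coding genes and 0.95 for 5 adipocyte markers. Only Car2 (log2 ratio 2.06) was past 4-fold, as were 10.1% of all genes in either direction. Under the 3 scalings Car2 was between 1.81 and 1.99, short of 4-fold. Car4 (1.70), Car3 (1.59) and Car5b (1.57) stood beside 5 adipocyte markers that ranged from 0.45 (Plin1) to 1.59 (Adipoq). In the same pair the epididymis marker Crisp1 was at 1386 FPKM in VAT against 1.64 in SCAT, and the lymphocyte marker Ms4a1 at 1.61 against 50.6, and the part of such RNA in the values of Car2 and the others was not tested.

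BAT differed from VAT in both directions. Of 8 genes at 1 FPKM or more in either depot, 3 were higher in BAT, namely Car14 (log2 ratio 1.91), Car8 (1.91) and Car11 (1.19). All 3 had higher values in muscle than in BAT, but by unlike margins. Car14 was at 16.7 FPKM in muscle against 5.03 in BAT, Car11 at 5.34 against 1.75 and Car8 at 1.95 against 1.83. The share of muscle RNA in BAT, given above by its markers, was not tested for its part in these values. Car8 and Car11 were under 1 FPKM in VAT and SCAT and Car1 in BAT, so each entered through the depot where it was higher. Of the 5 genes at 1 FPKM or more in both depots, 1 (Car14) was higher in BAT. Car3 (-2.26) and Car1 (-2.73) were past 4-fold below VAT, as were 17% of all genes in either direction, and Car2 was at -0.01, or between -1.10 and -0.70 under the 3 scalings. The call of Car1 was lost with a pseudocount of 1 and on the annotated strand. Equal-sum scaling added Car4 and Car5b, both lower in BAT. The median of the 8 was -0.52, and between -1.60 and -1.20 under the scalings, against 0.52 for all 11945 genes and 0.35 for the adipocyte markers as deposited. For the 5 genes at 1 FPKM or more in both depots it was -1.02 as deposited. Against SCAT, 6 of 8 genes were higher in BAT and 4 of 8 under each of the 3 scalings, and of the 5 at 1 FPKM or more in both depots, 4 were higher in BAT as deposited. Car8 (2.46) and Car2 (2.05) were past 4-fold above SCAT, as were 21.6% of all genes in either direction. This call did not hold under any of the 3 scalings, where Car8 was between 1.32 and 1.80 and Car2 between 0.71 and 1.28. Car1 was then past 4-fold in the other direction, at -3.15 to -2.62 in BAT over SCAT, and so was Car3 under equal-sum scaling (-2.06). The median of the 8 was 1.08, and 0.67 for the 5 in both depots, against 0.65 for all 11707 genes and 1.73 for the adipocyte markers. The median of the 8 was 0.33 and 0.31 under median-ratio and upper-quartile scaling and turned to -0.22 under equal-sum scaling.

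**Figure D3:**
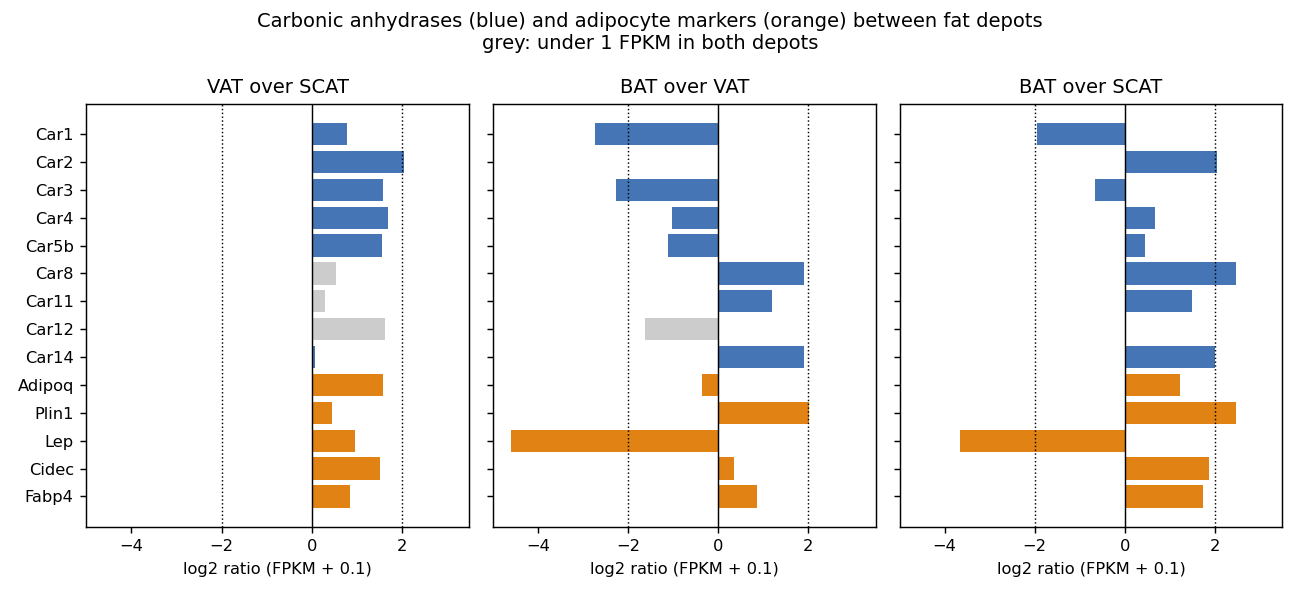
Log2 ratio of FPKM + 0.1 (horizontal axis) between pairs of fat depots for the 9 carbonic anhydrase genes (blue) and 5 adipocyte markers (orange), 1 library per depot, with genes under 1 FPKM in both depots in grey and dotted lines at 4-fold. Car3 lies at 1.59 in VAT over SCAT and at -2.26 in BAT over VAT.

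Several genes have a second locus, read as lying on the opposite strand, and the rule takes the locus with the higher FPKM. Of 14928 protein-coding names, 51.9% had loci on both strands, and the median opposite-strand level was 58.9% of the annotated one. For Car3 the opposite locus stood at 30.7% to 38.2% of the annotated one in all 7 tissues, and for Car2 at 13.5% to 25.4%. For Car1 and Car5b the opposite locus was the higher one, so the values above are not from the annotated strand. On the annotated strand Car1 was at 2.94 FPKM in liver, 1.03 in muscle and 0.512 in VAT. Car5b was there at 24.7 in VAT, 17.1 in kidney, 11.2 in BAT, 8.95 in SCAT, 3.97 in liver, 2.19 in muscle and 1.83 in cortex. The order of VAT, kidney, BAT and SCAT was the same for both loci of Car5b, but liver was lowest at one and above muscle and cortex at the other. The opposite locus of Car5b ranged from 25.1% of the annotated one in liver to 181% in kidney.

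**Figure D4:**
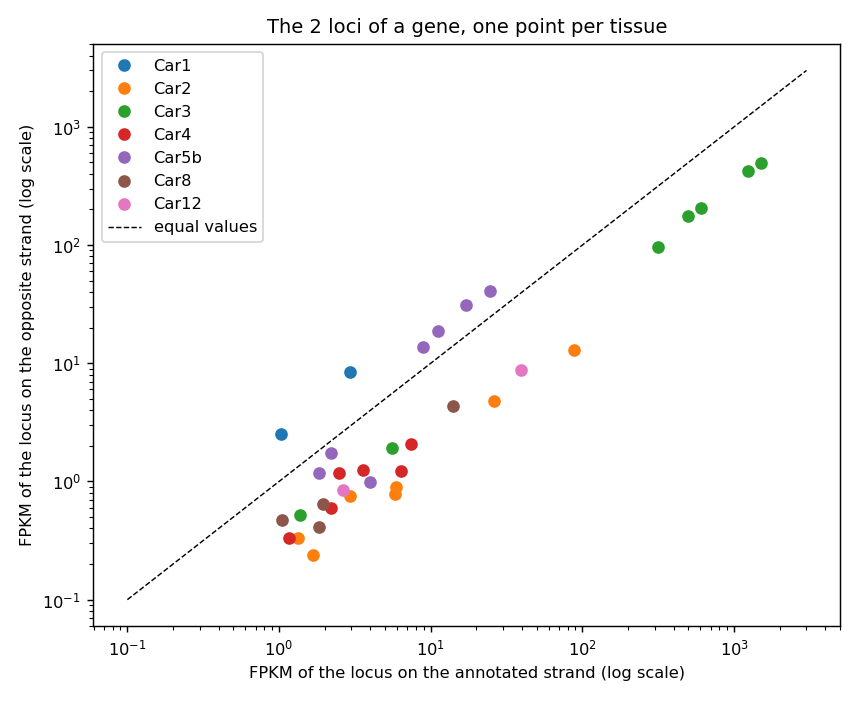
FPKM of the locus on the annotated strand (horizontal, log scale) and of the locus on the opposite strand (vertical, log scale) for 7 carbonic anhydrase genes, 1 point for each tissue in which the annotated locus reached 1 FPKM. Car3 lies below the line of equal values in every tissue, Car1 lies above it, and Car5b lies above it in kidney and the 3 fat depots.

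The rest of the family was looked up as well. All 6 further names had a locus, and 3 were enriched: Car13, a cytosolic form, in BAT (39.6 FPKM, log2 ratio 3.27), Car10, a related protein of brain, in cortex (12.1 FPKM, 6.64), and Car9, a transmembrane form induced by low oxygen, in muscle (240.5 FPKM, 4.67). Over all 14898 protein-coding genes, 21.3% were enriched in any tissue, 0.738% in BAT, 8.22% in cortex and 3.38% in muscle. The gene Car9 lies 981 bases from Tpm2, a tropomyosin on the opposite strand that was at 1563 FPKM in muscle. The table lists Car9 with the bounds of a bundle of 7 loci that includes Tpm2, and how much of the muscle value is of Car9 alone cannot be told apart. Car13 and Car10 had their higher locus on the opposite strand, with 17.3 FPKM in BAT and 10.2 in cortex on the annotated one. Car7 ranged from 1.08 to 2.46 FPKM, and Car6, the secreted salivary form, did not exceed 0.213. The Car15 locus also carries the names of other genes, so that its 24.0 FPKM in kidney cannot be assigned to Car15. Across gene transcripts, 2 of 120 pairs of family genes shared any stretch of 30 bases, Car5a with Car5b and Car2 with Car13.

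Carbonic anhydrases hand bicarbonate and protons to transporters and carboxylases. Of 29 genes listed, which were such transporters, proton pump subunits and bicarbonate-using enzymes, a transporter chaperone and 2 receptor phosphatases with a carbonic anhydrase-like domain, 28 had a value in all 7 tissues. Of the 28, 11 were enriched: 5 in kidney, 3 in cortex and 1 each in liver, BAT and muscle. Over all 14898 genes the shares were 21.3% in any tissue, 2.48% in kidney, 8.22% in cortex, 3.38% in liver, 0.738% in BAT and 3.38% in muscle. The list was chosen with earlier results of these data known, and only 2 proton pump subunits were in it. The counts therefore describe this list and are no evidence on such genes as a whole. The kidney set comprised the bicarbonate exchangers Slc4a1 (6.21 FPKM), Slc4a9 (7.57) and Slc26a4 (12.2) and the proton pump subunits Atp6v1b1 (10.5) and Atp6v0a4 (46.3). In cortex they were the bicarbonate transporters Slc4a3 (15.1) and Slc4a10 (41.6) and Ptprz1 (11.9), one of the receptor phosphatases. Slc4a4, the sodium bicarbonate cotransporter of the proximal tubule, was at 172 FPKM in kidney and 70.5 in BAT and was not enriched.

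Among lactate transporters, Slc16a3 was enriched in muscle (131 FPKM). In the other tissues with high Car3 it was at 3.08 FPKM in liver, 2.40 in BAT, 2.36 in VAT and 2.35 in SCAT. Among the enzymes that take up bicarbonate, Cps1, which starts the urea cycle, was at 666 FPKM in liver and at most 5.82 elsewhere. Acaca, the acetyl-CoA carboxylase of fatty acid synthesis, was at 229 in BAT and 20.5 in VAT. Pc was listed among these enzymes but had no value. Pccb, a propionyl-CoA carboxylase subunit, was at 151 in BAT, 65.3 in kidney and 19.3 in VAT.

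**Figure D5:**
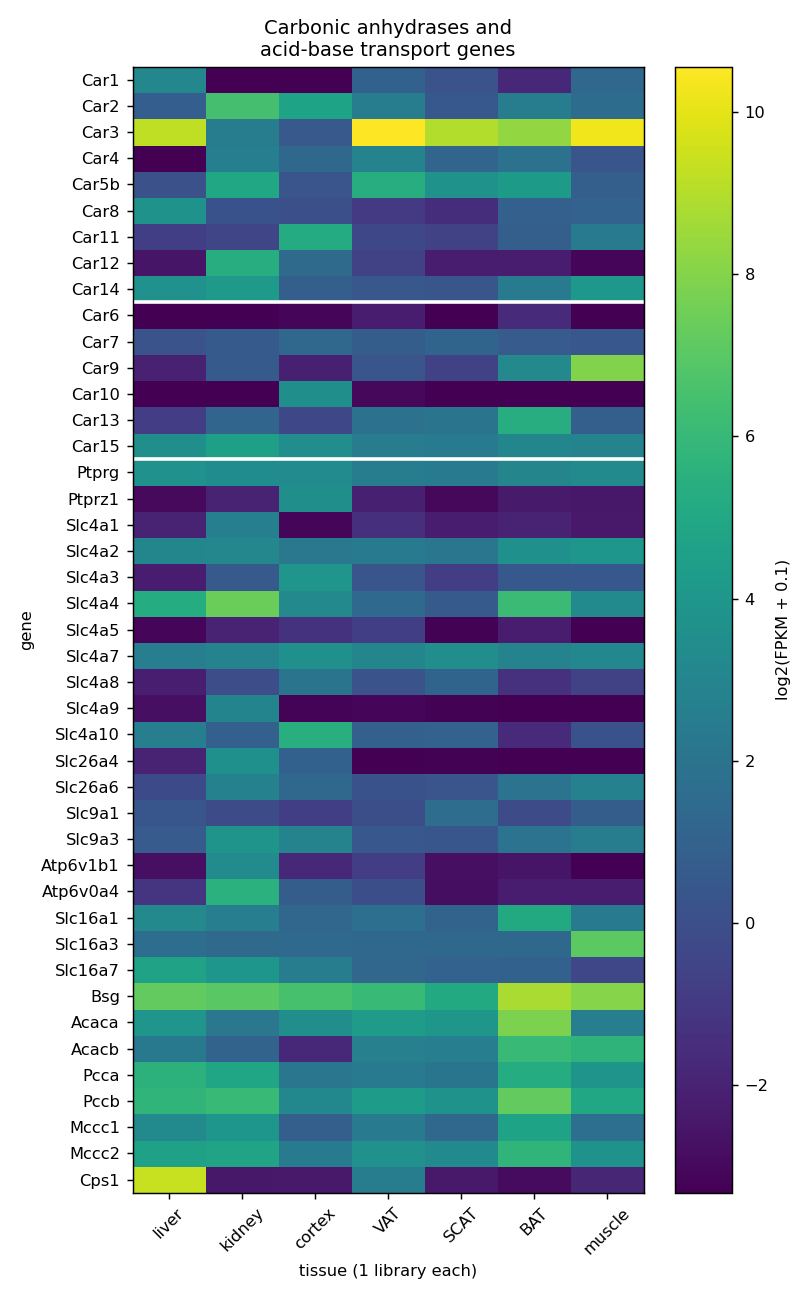
Log2 of FPKM + 0.1 (colour) in the 7 tissues, 1 library each, for the 9 carbonic anhydrase genes (top block), 6 further family genes (middle) and 28 transport, bicarbonate-using and receptor phosphatase genes (bottom). Car3 is bright in liver, muscle and the 3 fat depots, and the proton pump subunit Atp6v0a4 is bright only in kidney.

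For each gene, the 2 protein-coding genes with the most alike tissue profile were found among 13272, by the root mean square (RMS) difference of centred log2 values over the 7 tissues. For Car11 these were Rab3a (RMS 0.25) and Ttll11 (0.38), for Car8 Gpld1 (0.30) and Glo1 (0.42), for Car12 Slco4c1 (0.32) and Galnt14 (0.51), and for Car14 Egln3 (0.35) and As3mt (0.35). Car2 was nearest to Rhov (0.41) and Wdr31 (0.57), and Car4 to Arhgef28 (0.65) and Tspan6 (0.81). Car1 was nearest to Lbp (0.71) and Rnase4 (0.74), and Car5b to Hoxb8 (0.72) and Hcar1 (0.74). Car3 had the most distant neighbours, Steap4 (1.33) and Fcna (1.55). Within the family the closest pair was Car2 and Car12 (1.15), ahead of Car10 and Car11 (1.26).

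Promoters of 5 of the 9 genes were matched in RefSeq (GRCm38.p6), each as 300 bases from 250 before to 50 after the start. 3 are shown, those of the kidney gene Car12 (chr9:66713436-66713735, plus strand), the cortex gene Car11 (chr7:45699554-45699853, plus strand, the first of its 2 starts) and Car5b (chrX:164027961-164028260, minus strand), which was high in fat and kidney. They run 5′ to 3′, with CG pairs in capitals.
Car12: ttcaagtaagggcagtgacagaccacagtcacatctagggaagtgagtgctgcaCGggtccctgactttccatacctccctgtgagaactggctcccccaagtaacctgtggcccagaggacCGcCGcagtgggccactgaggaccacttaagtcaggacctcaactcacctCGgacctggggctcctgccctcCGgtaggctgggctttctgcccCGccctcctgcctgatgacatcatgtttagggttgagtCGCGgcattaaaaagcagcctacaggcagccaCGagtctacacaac
Car11: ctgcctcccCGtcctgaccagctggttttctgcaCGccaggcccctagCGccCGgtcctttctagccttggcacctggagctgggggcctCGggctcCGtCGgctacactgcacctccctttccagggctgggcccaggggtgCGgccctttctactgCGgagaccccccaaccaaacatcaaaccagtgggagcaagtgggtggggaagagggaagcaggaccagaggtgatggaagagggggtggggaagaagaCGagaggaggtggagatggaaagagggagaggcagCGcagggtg
Car5b: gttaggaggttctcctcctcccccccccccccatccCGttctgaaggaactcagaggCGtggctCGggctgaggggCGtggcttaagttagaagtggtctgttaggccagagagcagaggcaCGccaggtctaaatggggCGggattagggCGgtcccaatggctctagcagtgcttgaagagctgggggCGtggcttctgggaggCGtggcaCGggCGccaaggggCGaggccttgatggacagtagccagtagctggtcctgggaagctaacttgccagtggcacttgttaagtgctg
These windows hold 9 CG pairs for Car12, 11 for Car11 and 12 for Car5b, against a median of 7 over 32851 promoters. The letters GGGCGG on either strand, a GC box, were found for Car12 and Car5b and in 35.7% of all promoters, and CCAAT for Car5b alone of the 3 and in 37.4% of all. Among the 5 matched genes, TATAAA was found for Car4 only (13.6% of all promoters), and neither CACGTG (7.15%) nor AGGTCA (16.3%) was found for any.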

How the data were processed

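Per the paper's methods, the authors trimmed reads with flexbar, removed ribosomal reads with Bowtie2 2.2.9, aligned the rest to GRCm38 (mm10) with STAR 2.6.0c and quantified with Cufflinks 2.2.1; the settings of cuffdiff for library type and for scaling are not given in the sources used here. The authors deposited FPKM per locus in 21 pairwise tissue comparisons. Their fold changes, test statistics, p-values and calls were not used. The FPKM come without fragment counts, so depth and intervals are unknown. The 151 loci with status FAIL were dropped and zeros with status LOWDATA treated as missing. The members and lists were chosen with earlier results of these data known. Named are all members, the listed transport, carboxylase and marker genes where they bear on a member, and the 2 most alike genes per member; Dbp, Aph1a and Tpm2 are annotated neighbours. Strand was read from the order of loci, and coordinates from GENCODE. Log2 values used a pseudocount of 0.1. With 1 library per tissue, n = 1, no test was made. The enrichment rule was tested on simulated data. Python 3.11.15, pandas 2.3.3, NumPy 2.4.6 and matplotlib 3.10.9 were used. Alternatives covered pseudocount, minimum, fold, locus choice, library scaling and left-out libraries.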

Additional observations from a re-analysis of the deposited data

How the results depend on the processing

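The Car3 shares in 21 alternative values lay within 1.5 times those given; summing all 15 family genes took muscle from 97.5% to 81.4% and BAT from 89.5% to 76.7%. The 3 enriched genes became 5 at 2-fold, 1 at 8-fold, and 6 over all 15 family genes with a locus, an alternative chosen after seeing the data. With a minimum of 5 FPKM, 2 genes passed in SCAT and in cortex each, 3 in muscle and 4 in BAT. For VAT against SCAT the 1 gene became 0 with a pseudocount of 1, with loci summed, under each of the 3 scalings, and less the adipocyte marker median (chosen after seeing the data). For BAT against VAT the 2 became 1 with a pseudocount of 1 or on the annotated strand and 4 under equal-sum scaling. For BAT against SCAT the 2 became 0 with a pseudocount of 1, 4 with 0.01, 1 with loci summed (Car8), and 1 under median-ratio or upper-quartile scaling, where it was Car1, lower in BAT. Under equal-sum scaling, and less the marker median, the 2 were Car1 and Car3, both lower in BAT. The scalings shifted libraries by -1.02 to 0.63 on the log2 scale, and the highest tissue of each of the 9 genes was the same under all 3; the cause of the other changes was not tested. Leaving out the kidney library gave 4 enriched genes, with Car2 added in cortex and Car12 enriched in cortex (log2 ratio 2.11) in place of kidney. Of the log2 ratios over the next tissue, 10 alternative values moved, mostly under equal-sum scaling, and 71 did not. No paired analysis was possible because each tissue has 1 library. Depth is unknown, so values near 0 cannot be told from 0.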
